A study of Mus musculus with 8 samples.

Results

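Astrocytes are the glial cells that take up transmitters, buffer potassium and water, feed neurons and coat synapses and vessels. They differ between brain regions, and some of their genes, such as Itih3, Agt and Slc6a11, are known in mice to be more active in astrocytes outside the telencephalon than in those of cortex and striatum. A set of 35 astrocyte genes, both general and regional, was taken from the arrays by gene name: every spot that was not a control spot and carried one of the 35 names was used (Agxt2l1, the array's name, is now Etnppl). This gave 48 of the 55681 probes and 35 of the 34797 gene names on the array. All 35 genes were measurable, since their brightest tested probe was well above background on all 8 arrays, so none of the set was missing from the tissue.

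The tissue was micropunched nucleus accumbens (NAc), the part of the ventral striatum that links reward to action, of adult male C3H/HeN mice that had performed an operant task for sweetened milk and were fasted before sampling. The MS group comprised 4 mice that underwent maternal separation from postnatal day 2 to 14 while their dams were exposed to unpredictable stress. The control group comprised 4 mice left with undisturbed dams, and both groups were weaned on postnatal day 21. Each mouse had its own array. According to the paper, litters were assigned to the groups. The first part of the mouse number, whose meaning was not given, was 5 or 7 in MS mice and 6 or 8 in control mice. In each group 3 of the 4 mice share it, and it cannot be separated from group. The p-values measure the spread between these mice, which may not be independent units.

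Levels are log2 signals scaled so that 0 stands for the 75th percentile of the probes on the array. A difference is the mean level of MS mice minus that of control mice, in log2 units, given with its standard error (SE) from limma. Levels of different genes come from different probes and were not set against each other. Between 57.3% and 69.7% of the probes were well above background on an array, and the highest share belonged to control replicate 4. The punches hold all cell types. Fewer astrocytes, less RNA per astrocyte and a change in other cells of the punch that hold the same RNA therefore cannot be told apart.

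Probe sequences are shown for a pair of receptors whose probes lie in the coding sequence, because these are the letters on which the lower signals described further on were read. They are printed from 5′ to 3′ in lower case, on build mm9 of the array annotation, for Ednrb at chr14:104220870-104220929 and for Gpr37l1 at chr1:137057746-137057805, both on the minus strand.
Ednrb: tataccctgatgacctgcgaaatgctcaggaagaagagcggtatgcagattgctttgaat
Gpr37l1: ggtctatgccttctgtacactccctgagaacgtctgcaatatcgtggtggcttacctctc

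Upstream sequences are shown for the 3 genes with the greatest differences and for a pair of neighbouring metallothionein genes that differed little. They are the 250 bases before the start in RefSeq, on build GRCm38.p6 and on the strand of the gene. Capitals mark letters that match TGCACNC, a form of the core of the metal response element, or TTGGCA, the short motif of nuclear factor I, on either strand. Other forms of the core were not searched. The positions are chr3:130617198-130617447 (plus) for Etnppl, chr14:30923588-30923837 (minus) for Itih3, chr11:55420081-55420330 (minus) for Sparc, chr8:94178839-94179088 (plus) for Mt1 and chr8:94172368-94172617 (plus) for Mt2.
Etnppl: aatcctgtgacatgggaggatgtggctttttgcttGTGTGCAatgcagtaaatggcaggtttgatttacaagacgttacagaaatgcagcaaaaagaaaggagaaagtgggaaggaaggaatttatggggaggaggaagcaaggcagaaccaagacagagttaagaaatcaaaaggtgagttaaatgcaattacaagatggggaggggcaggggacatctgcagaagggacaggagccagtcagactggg
Itih3: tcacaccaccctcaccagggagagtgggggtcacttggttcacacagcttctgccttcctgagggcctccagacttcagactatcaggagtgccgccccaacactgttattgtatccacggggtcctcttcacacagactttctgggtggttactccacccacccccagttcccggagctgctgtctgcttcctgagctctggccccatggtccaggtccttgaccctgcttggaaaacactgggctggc
Sparc: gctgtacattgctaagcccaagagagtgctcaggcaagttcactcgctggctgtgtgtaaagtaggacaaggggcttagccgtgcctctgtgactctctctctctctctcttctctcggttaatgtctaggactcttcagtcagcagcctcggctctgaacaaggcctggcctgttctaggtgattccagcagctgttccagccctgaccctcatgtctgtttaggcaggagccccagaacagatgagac
Mt1: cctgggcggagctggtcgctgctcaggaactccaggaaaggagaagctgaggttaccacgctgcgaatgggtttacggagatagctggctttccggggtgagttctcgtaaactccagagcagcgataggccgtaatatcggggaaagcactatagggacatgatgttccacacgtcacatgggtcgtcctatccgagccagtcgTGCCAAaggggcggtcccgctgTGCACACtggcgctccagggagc
Mt2: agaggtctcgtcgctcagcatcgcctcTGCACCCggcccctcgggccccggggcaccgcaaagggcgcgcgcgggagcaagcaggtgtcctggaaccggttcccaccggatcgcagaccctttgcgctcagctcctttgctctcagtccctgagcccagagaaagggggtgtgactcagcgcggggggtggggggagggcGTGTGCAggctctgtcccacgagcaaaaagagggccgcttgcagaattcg

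The astrocyte genes were mostly lower in MS mice, by amounts that ranged widely. Of the 35 genes, 30 were lower and 5 were higher in sign in MS mice, where 49.9% of all genes were lower and 50.1% higher, and the median difference was -0.16, against 0.00021 over all 22788 genes tested. In 14 genes (40%) all 4 MS mice lay below all 4 control mice, and in none did all 4 MS mice lie above. Over all genes tested, 5.25% were lower and 3.74% were higher in MS mice without overlap. The 14 genes were Etnppl, Itih3, Sparc, Slc14a1, Ednrb, Timp4, Slc6a9, Ntsr2, Gpr37l1, Sparcl1, Aldh1l1, Acsbg1, Aldoc and Apoe. An unadjusted p under 0.05 was found for 17 of the 35 genes, all lower in MS mice, where 7.96% of all genes were lower and 5.88% higher at that level. After Benjamini-Hochberg adjustment over the 33111 probes tested, 1 of the 35 genes, Sparc, passed the threshold of 0.05, against 0.00878% of all genes called lower and 0.00439% called higher.

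The list of changed genes drawn up on these same arrays by the study holds the probes of 8 of the 14 genes (Etnppl, Itih3, Sparc, Timp4, Slc6a9, Ntsr2, Ednrb and Gpr37l1), so these are not independent evidence of a direction. The other 27 genes were read on the same arrays, so they are not independent evidence either. Of these 27, 22 were lower and 5 were higher in sign, 6 (22.2%) were lower without overlap, and the median difference was -0.16. Without control replicate 4 the median was -0.18. The number of genes lower without overlap was then 14 of 35, but this count cannot fall when a mouse is left out.

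**Figure D1:**
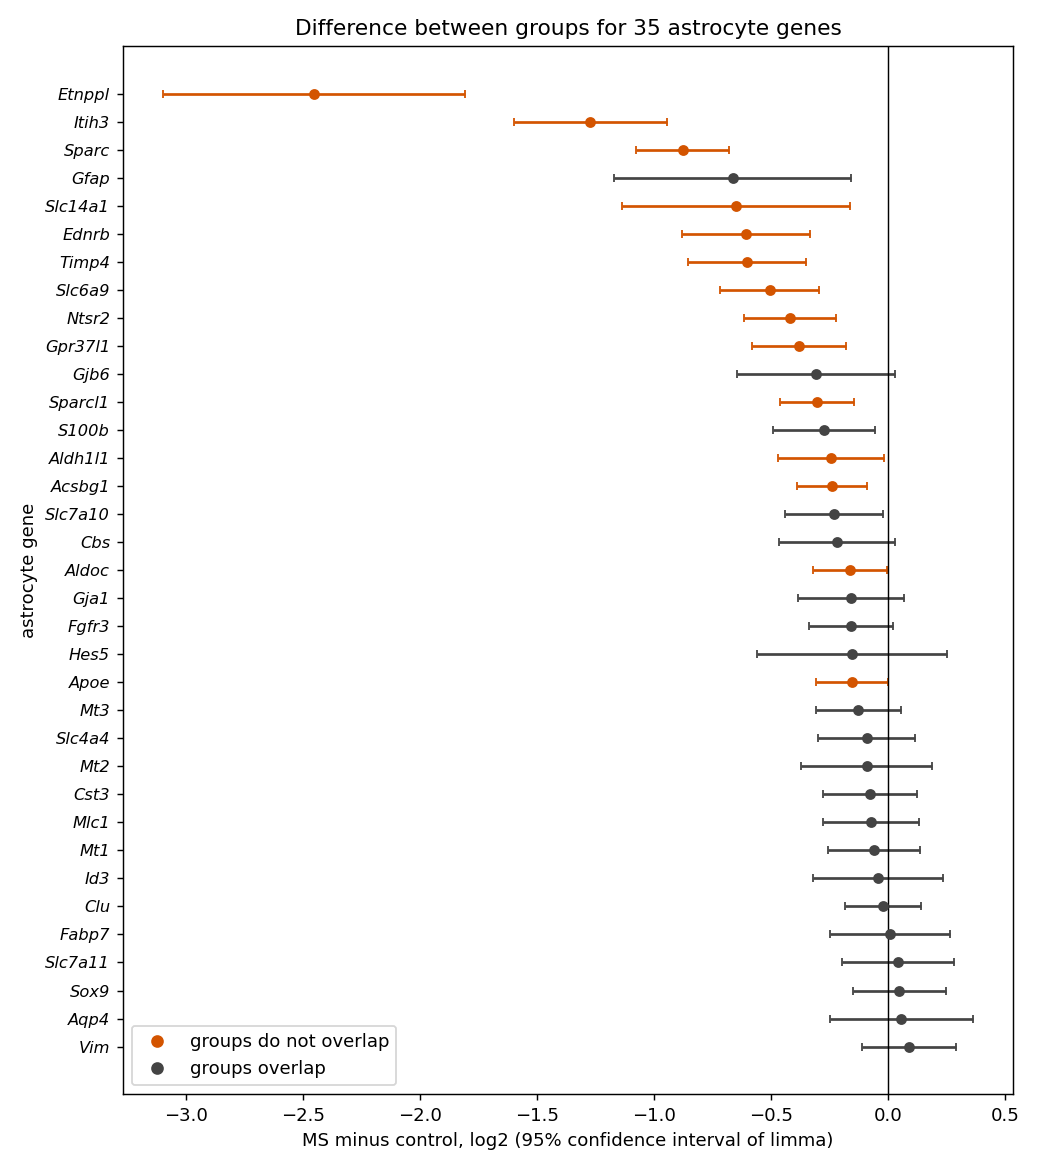
Difference between groups (MS minus control, log2) for each of the 35 astrocyte genes, as points with 95% confidence intervals of limma, ordered by difference. Orange points mark the 14 genes whose MS and control values did not overlap, dark points the others. The differences run from -2.45 for Etnppl to 0.09 for Vim.

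Secreted and matrix proteins held the only call. Sparc encodes a matricellular glycoprotein that limits synapse formation in culture. Its level was 6.58, 6.41, 6.50 and 6.64 in the MS mice and 7.37, 7.29, 7.41 and 7.59 in the control mice. The lowest control mouse thus lay above the highest MS mouse, and Sparc fell by 0.88 (SE 0.087), which is 1.84-fold lower in MS mice (limma, adjusted p = 0.0450). This call sits at the edge of the threshold: it held under 5 of 11 alternative settings that kept all 8 mice, and the adjusted p ran from 0.000492 to 0.219 over all settings tried. Leaving out 1 mouse ended it except without control replicate 3, where adjusted p was 0.0405. Without any one of the other 7 mice the adjusted p ran from 0.0915 (without MS replicate 3) to 0.174 (without MS replicate 2). A second probe of Sparc, 877 bases away, differed by -0.81 (SE 0.26, adjusted p = 0.232), and there the groups overlapped.

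Itih3, a heavy chain of the inter-alpha-trypsin inhibitor that binds hyaluronan, had levels of 2.62, 2.62, 2.45 and 2.78 in MS mice and 3.79, 3.95, 3.57 and 4.25 in control mice. The groups were separated by a gap wider than the range within the MS group. The difference was -1.27 (SE 0.14, 2.42-fold lower in MS mice), and its adjusted p of 0.0659 missed the threshold in limma's fit. It passed under 6 of the 11 settings with all mice, the lowest adjusted p being 0.00106, and it also passed without control replicate 3 (0.0304).

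Timp4 encodes an inhibitor of matrix metalloproteinases. Its level was 0.86, 0.75, 1.03 and 1.03 in MS mice and 1.73, 1.36, 1.38 and 1.62 in control mice, a difference of -0.60 (SE 0.11, adjusted p = 0.0938). Sparcl1, or hevin, which promotes synapses in culture, had levels of 7.59, 7.53, 7.70 and 7.596 in MS mice and 7.88, 7.90, 7.84 and 8.01 in control mice. Its difference of -0.30 (SE 0.07, adjusted p = 0.129) came with ranges that were close but did not touch.

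Apoe, the main lipid carrier made by astrocytes, had levels of 7.88, 7.77, 7.73 and 7.81 in MS mice and 8.04, 7.94, 7.94 and 7.90 in control mice. The groups were nearly contiguous and the difference was -0.16 (SE 0.067, adjusted p = 0.347). The remaining secreted proteins, the chaperone clusterin (Clu) and the protease inhibitor cystatin C (Cst3), had overlapping groups and differences of -0.02 (SE 0.071) and -0.08 (SE 0.088). The 7 secreted and matrix genes therefore included differences beyond 1 and differences near 0.

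Enzymes held the largest difference of the set. Etnppl breaks down phosphoethanolamine. Its level was -1.65, -2.05, -1.59 and -0.85 in MS mice and 0.90, 0.78, 0.48 and 1.51 in control mice. All MS mice were below the 75th percentile of their array and all control mice above it. The difference was -2.45 (SE 0.28), 5.47-fold lower in MS mice, with an adjusted p of 0.0659 in limma's fit. It passed the threshold under 6 of the 11 settings with all mice and without control replicate 3 (adjusted p = 0.0405).

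Acsbg1, which activates long-chain fatty acids, had levels of 3.49, 3.49, 3.58 and 3.64 in MS mice and 3.74, 3.77, 3.80 and 3.85 in control mice, a difference of -0.24 (SE 0.066, adjusted p = 0.178). A second Acsbg1 probe was well above background in 1 MS and 3 control mice only, and it differed by -0.61 (SE 0.37, adjusted p = 0.503). Aldoc, the brain form of the glycolytic enzyme aldolase, had levels of 7.99, 7.90, 8.01 and 7.96 in MS mice and 8.14, 8.04, 8.25 and 8.07 in control mice. Its groups were separated by a narrow gap, with a difference of -0.16 (SE 0.07, adjusted p = 0.346). Cbs, which joins homocysteine and serine in the transsulfuration pathway, differed by -0.22 (SE 0.11) with overlapping groups.

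Receptors were lower in sign in all 4 cases, and 3 of them did not overlap. The endothelin receptor B gene Ednrb had levels of -0.47, -0.81, -0.62 and -0.66 in MS mice and -0.06, -0.11, -0.22 and 0.27 in control mice, a difference of -0.61 (SE 0.12, adjusted p = 0.102). On its coding-sequence probe, printed earlier, the levels were -1.03, -1.05, -1.20 and -1.05 in MS mice and -0.69, -0.76, -0.74 and -0.47 in control mice, again without overlap (difference -0.42, SE 0.084, adjusted p = 0.104). Both Ednrb probes, 6326 bases apart, thus ordered the groups the same way.

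Ntsr2 encodes a neurotensin receptor that astrocytes carry. Its level was 3.93, 3.95, 3.93 and 4.22 in MS mice and 4.41, 4.34, 4.46 and 4.49 in control mice. MS replicate 4 stood apart from the other MS mice but still below every control mouse, and the difference was -0.42 (SE 0.086, adjusted p = 0.109). Gpr37l1, an orphan receptor of astrocytes, had levels of 1.61, 1.83, 1.83 and 1.98 in MS mice and 2.21, 2.13, 2.17 and 2.28 in control mice, with a difference of -0.38 (SE 0.088, adjusted p = 0.129). Fgfr3, a fibroblast growth factor receptor, differed by -0.16 (SE 0.079) with overlapping groups.

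Transporters for amino acids and urea were split. Slc6a9, the glycine transporter GlyT1, had levels of 3.92, 3.79, 3.91 and 3.85 in MS mice and 4.36, 4.27, 4.26 and 4.61 in control mice, a difference of -0.51 (SE 0.092, adjusted p = 0.0937). Its second probe shares 51 bases with the first and is no separate measurement. Slc14a1, a urea transporter, had levels of -2.23, -2.95, -2.56 and -2.50 in MS mice and -2.18, -2.21, -1.88 and -1.36 in control mice. MS replicate 1 lay just below the lowest control mouse, and the difference was -0.65 (SE 0.21, adjusted p = 0.240). Slc7a10, an exchanger of small neutral amino acids, differed by -0.23 (SE 0.092, adjusted p = 0.311) with overlap, whereas Slc7a11, the cystine-glutamate exchanger, differed by 0.04 (SE 0.11).

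**Figure D2:**
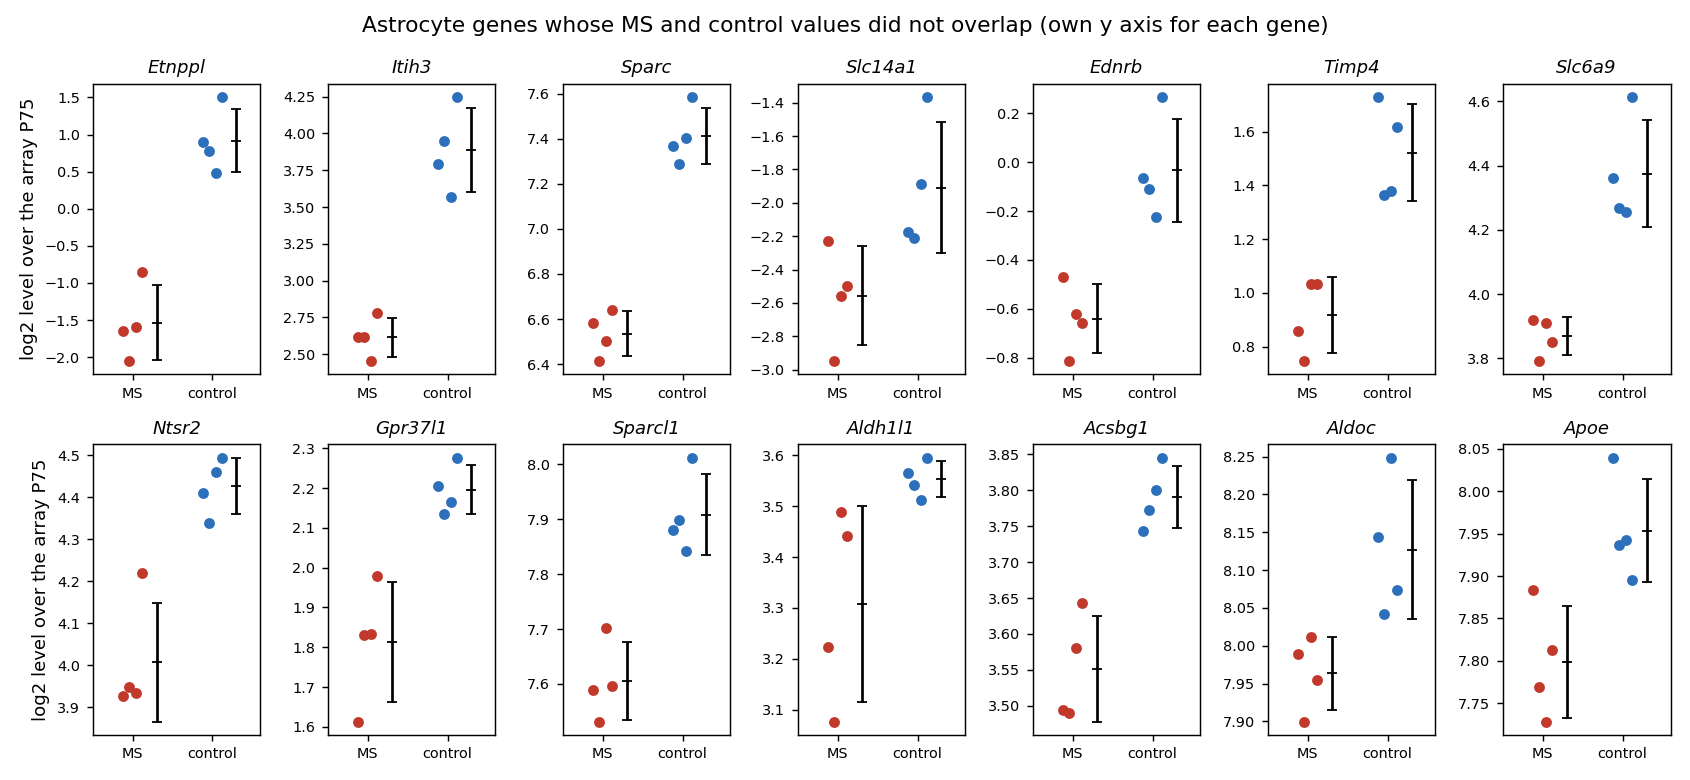
Levels (log2 signal relative to P75, the 75th percentile of the array) of the 14 genes without overlap, 1 panel per gene with its own axis. Red points are the 4 MS mice, blue points the 4 control mice, and bars show the mean ± SD. In each panel all MS points lie below all control points, widely for Etnppl, Itih3 and Sparc and narrowly for Slc14a1, Aldh1l1 and Apoe.

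Of the best known identity markers of astrocytes, Gfap, Aldh1l1, S100b, Gja1 and Aldoc were lower in sign in MS mice, whereas Aqp4 was not. None passed the adjusted threshold. Gfap, the intermediate filament protein used to stain astrocytes, had levels of -1.24, -1.55, -1.75 and -1.28 in MS mice and -0.88, -1.39, -0.41 and -0.47 in control mice. Control replicate 2 lay within the MS range, and the difference of -0.66 (SE 0.22) had an adjusted p of 0.245. The other 2 Gfap probes were lower in sign as well, at -0.42 (SE 0.23) and -0.61 (SE 0.42). Within the 4 columns of the slide, 1 MS and 1 control array each, the Gfap difference ran from -1.08 to 0.11.

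Aldh1l1, a folate enzyme and the most used pan-astrocyte marker, had levels of 3.22, 3.08, 3.49 and 3.44 in MS mice and 3.56, 3.54, 3.51 and 3.60 in control mice. The groups did not overlap, but MS replicates 3 and 4 came close to the control mice (difference -0.25, SE 0.099, adjusted p = 0.319). S100b, a calcium-binding protein, had levels of 4.80, 4.75, 4.98 and 4.59 in MS mice and 4.95, 5.01, 5.16 and 5.09 in control mice. One MS mouse, replicate 3, exceeded the lowest control mouse, and the difference was -0.28 (SE 0.095, adjusted p = 0.259).

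The endfoot proteins differed less. Aqp4, the water channel of astrocyte endfeet, had levels of 0.55, 0.58, 1.03 and 0.84 in MS mice and 0.49, 0.93, 0.66 and 0.69 in control mice. The groups were intermixed, with a difference of 0.06 (SE 0.13) whose 95% interval ran from -0.25 to 0.36. Gja1, the gene of the main connexin that couples astrocytes, had levels of -0.24, -0.20, -0.022 and -0.0036 in MS mice and -0.017, -0.10, 0.033 and 0.25 in control mice. These overlapped too, with a difference of -0.16 (SE 0.099, adjusted p = 0.517).

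The other channel and junction genes all overlapped between groups. The second astrocyte connexin gene, Gjb6, differed by -0.31 (SE 0.15), the bicarbonate transporter gene Slc4a4 by -0.09 (SE 0.091) and Mlc1, the gene of a membrane protein of endfeet, by -0.07 (SE 0.09). Of the identity genes, the filament gene Vim differed by 0.09 (SE 0.088) and the fatty acid binding protein gene Fabp7 by 0.01 (SE 0.11), both with overlap. The Vim interval ran from -0.11 to 0.29, so a shift as large as that of Sparc in either direction lies outside it.

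Metallothioneins, which bind zinc and copper and are induced by metals and glucocorticoids, overlapped between groups in all 3 cases. The differences were -0.06 (SE 0.086) for Mt1, -0.09 (SE 0.12) for Mt2 and -0.13 (SE 0.079) for Mt3. A second Mt1 probe had the opposite sign, at 0.11 (SE 0.14), and was the only one of 11 further probes in 10 of the genes to do so. Of those 11, the Slc6a9 probe and the Slc4a4 probe share 51 and 48 bases with the first probe of their gene and are no separate measurements. The transcription regulators Sox9, Id3 and Hes5, which act in glial identity and Notch signalling, differed by 0.05 (SE 0.088), -0.04 (SE 0.12) and -0.16 (SE 0.18) with overlapping groups. In 12 of the 35 genes the difference was within 0.1 of 0, and none of these 12 was free of overlap.

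The promoters of 30 of the 35 genes were found in RefSeq, as 38 windows of 250 bases before to 50 bases after the start. The metal response letters TGCACNC occurred, on either strand, in the windows of Etnppl, Ednrb, Mt1, Mt2 and Mt3, and in 12.6% of 32851 windows over all genes. The letters TTCNNNGAA, bound by STAT factors, occurred for Acsbg1, Aldoc, Gfap, Ntsr2 and Slc7a11 and in 8.30% of all windows. The letters TTGGCA, to which nuclear factor I binds, occurred for Etnppl, Aldoc, Apoe, Mt1 and S100b and in 14.1% of all windows. For Etnppl they lie in a second window of the gene, outside the printed bases. Each motif was thus found both for genes that did not overlap between groups and for genes that did. These matches describe letters only.

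Single mice contributed unequally. Control replicate 4 was the highest of the 8 mice in 15 of the 35 genes, and control replicates 1 and 3 in 5 each. The lowest mouse was MS replicate 2 in 12 genes, MS replicate 1 in 9 and MS replicate 3 in 7. As a score over the 35 genes (the mean of the level minus the mean of that gene over all 8 mice), the MS mice stood at -0.19, -0.23, -0.14 and -0.10 and the control mice at 0.16, 0.08, 0.14 and 0.26. All 8 arrays were on 1 slide of 2 rows and 4 columns. Each column held 1 MS and 1 control array and each row 2 of each, so the 14 genes without overlap are bound to be lower in every row and column. Of the other 21 genes, 12 were lower in MS mice within both rows and 3 within all 4 columns.

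**Figure D3:**
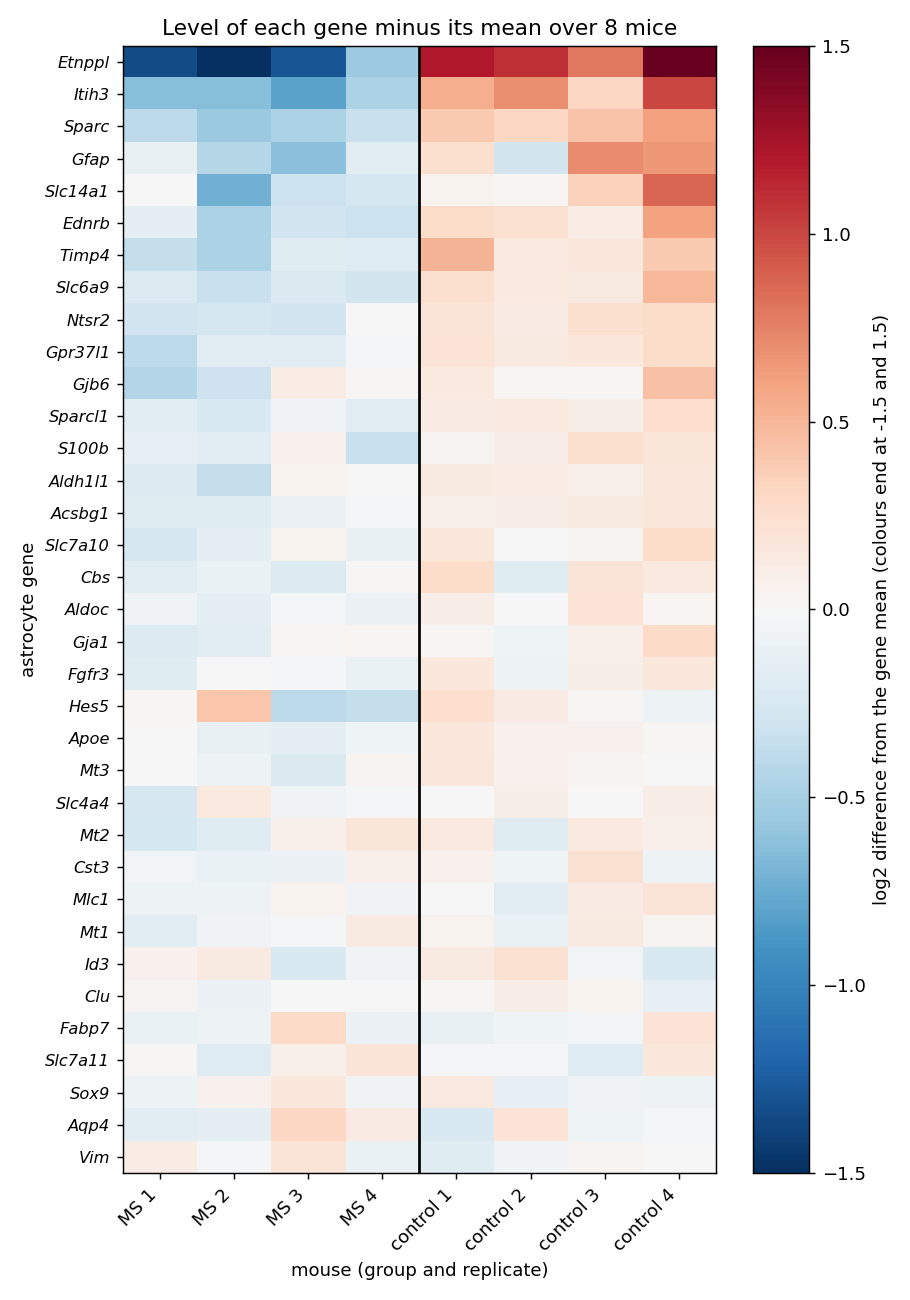
Level of each of the 35 genes in each mouse minus the mean of the gene over the 8 mice (log2, colours end at -1.5 and 1.5), with MS mice left and control mice right of the black line. Genes are ordered by difference, and the contrast between sides fades below Apoe. Control replicate 4 holds the highest value in 15 genes.

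A further 49 astrocyte genes were all tested. In MS mice 31 were lower and 18 higher in sign, and the median difference was -0.08. Without overlap 8 (16.3%) were lower and 2 (4.08%) higher, against 5.25% and 3.74% of all genes tested. None passed the adjusted threshold in limma. At an unadjusted p under 0.05, 11 were lower and 4 higher, against 7.96% and 5.88% of all genes tested. Agt, the angiotensinogen gene, differed by -1.998 (SE 0.26, adjusted p = 0.0695), the GABA transporter gene Slc6a11 by -1.01 (SE 0.20, adjusted p = 0.102) and the mitochondrial glutamate carrier gene Slc25a18 by -0.98 (SE 0.18, adjusted p = 0.0958). Kcnj10, the inward rectifier that buffers potassium, differed by -0.30 (SE 0.094, adjusted p = 0.215), again without overlap. The glutamate transporter genes Slc1a2 and Slc1a3 differed by 0.16 (SE 0.076) and -0.12 (SE 0.097), and glutamine synthetase (Glul) by 0.05 (SE 0.12), all with overlap. The study's list holds 5 of these 49 genes.

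The regional genes differed in sign, but of the telencephalic genes shown only Lhx2 was free of overlap. Agt, Slc6a11 and Itih3, which mark astrocytes outside the telencephalon, were all lower in MS mice without overlap. Their score ranged from -0.997 to -0.52 in MS mice and from 0.42 to 1.20 in control mice. It was bound to separate the groups, since each of the 3 genes did. All 3 are in the study's list. Mfge8 and Lhx2, which mark telencephalic astrocytes (Lhx2 also other telencephalic cells), differed by 0.07 (SE 0.071, adjusted p = 0.699) and 0.45 (SE 0.10, adjusted p = 0.129). Mfge8 overlapped between groups. Lhx2 did not, and it is in the study's list too. None of these regional genes passed the adjusted threshold of limma.

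Of 36 genes of reactive astrocytes 35 were on the array and 25 were tested, 16 lower and 9 higher in sign in MS mice with a median of -0.03. None passed the adjusted threshold, 6 were lower and 0 higher at an unadjusted p under 0.05, and 3 (12%) were lower without overlap: Sphk1 by -1.43 (SE 0.27), Serpina3n by -0.92 (SE 0.21) and Psmb8 by -0.32 (SE 0.078). Over all genes tested this share was 5.25%, and 7.96% were lower and 5.88% higher at an unadjusted p under 0.05. The study's list holds 2 of the 25, Sphk1 and Serpina3n. Without control replicate 4 the median was -0.06.

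Markers of other cells differed as well, some lists in the direction of the astrocyte genes and others in the opposite direction. Their part in the result was not tested. Genes of pallidal neurons, which lie next to the NAc, gave 12 lower and 2 higher differences of 14, with a median of -0.98. Lower without overlap were 9 (64.3%), led by Slc17a6 (-2.82, SE 0.79), Npas1 (-2.26, SE 0.37) and Pvalb (-2.07, SE 0.51). Slc17a6 had a low and widely spread level in MS mice (mean -4.11, SD 1.80). Over all genes tested, 5.25% were lower and 3.74% higher without overlap. The 2 higher genes, Kcna1 (0.32, SE 0.11) and Lhx6 (0.13, SE 0.10), overlapped between groups. The study's list holds 7 of the 14 pallidal genes. Their score ranged from -0.82 to -0.08 in MS mice and from 0.20 to 0.78 in control mice. All 16 genes of medium spiny neurons, the main neurons of the NAc, were higher in sign in MS mice, with a median of 0.34. Of these, 1 (6.25%), Gng7 (0.33, SE 0.11), did not overlap. Without control replicate 4 all 16 were still higher in sign, but the median was 0.21. Their score ranged from -0.03 to 0.28 in MS mice and from -0.56 to 0.09 in control mice. Control replicate 4 had the highest pallidal score (0.78), the lowest medium spiny score (-0.56) and the highest score of the 35 astrocyte genes (0.26).

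Other glia were also lower in sign. Of 15 oligodendrocyte genes 14 were lower, with a median of -0.22 (-0.13 without control replicate 4), but none was free of overlap, and their score ranged from -0.26 to 0.07 in MS mice and from -0.13 to 0.32 in control mice. Of 8 genes of their precursors 7 were lower, with a median of -0.28. Without overlap 5 (62.5%) were lower, against 5.25% of all genes tested, led by C1ql1 (-0.53, SE 0.092), which is in the study's list. Of 14 microglia genes 13 were lower, with a median of -0.16 and none free of overlap. Of 15 blood vessel genes 12 were higher, with a median of 0.08. Higher without overlap were 2 (13.3%), Rgs5 (0.23, SE 0.064) and Pdgfrb (0.096, SE 0.064), against 3.74% of all genes tested. Of 8 genes of ependyma and choroid plexus 5 were higher, with a median of 0.11. Of 11 general neuron genes 8 were lower, with a median of -0.11, and 3 (27.3%) were lower without overlap, led by Stmn2 (-0.62, SE 0.18). No gene of these lists of other cells passed the adjusted threshold of limma. At an unadjusted p under 0.05 stood 10 pallidal genes (9 lower, 1 higher), 6 medium spiny genes (all higher) and 5 precursor genes (all lower). So did 3 vessel genes (1 lower, 2 higher), 2 microglia genes (both lower) and 2 general neuron genes (both lower). The same held for 1 ependyma or choroid plexus gene (lower) and 0 oligodendrocyte genes. Over all genes tested, 7.96% were lower and 5.88% higher at that level. One pallidal gene (Elfn1) and 3 ependyma or choroid plexus genes (Tmem212, Ak7 and Ttr) were on the array but were not above background often enough to be tested.

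**Figure D4:**
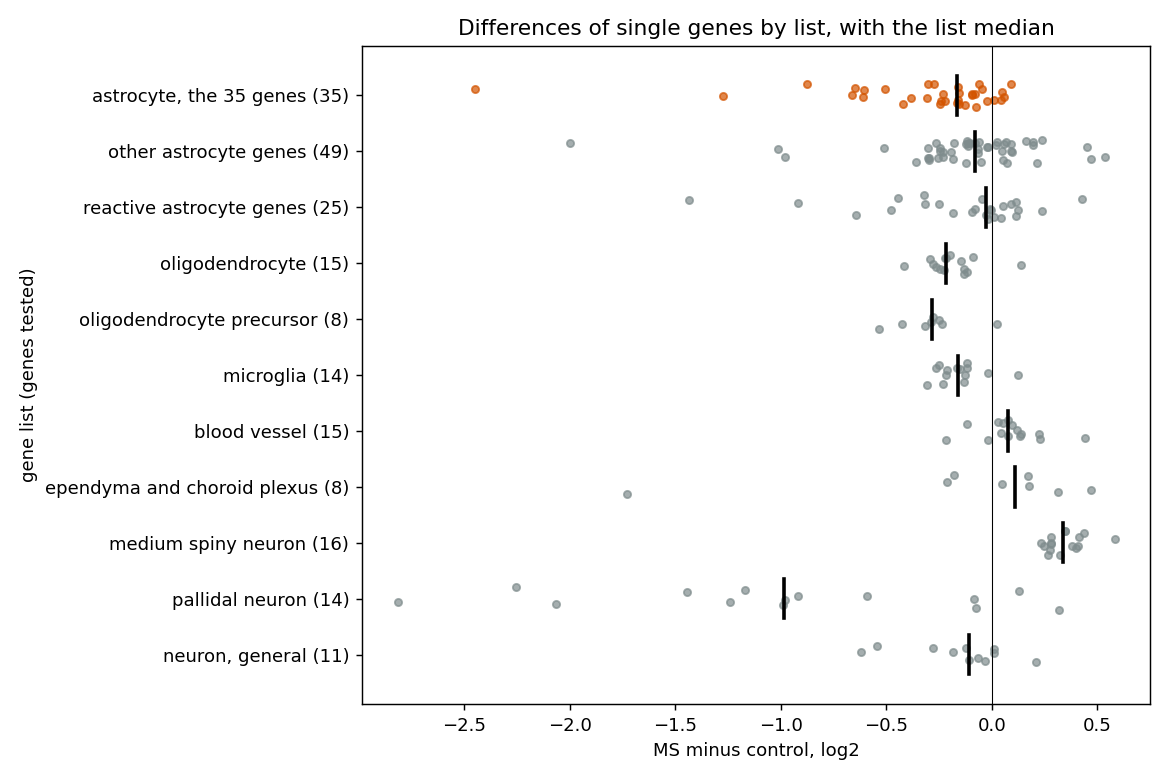
Differences (MS minus control, log2) of single genes in 11 lists, 1 point per gene tested and a black bar at the median of each list. The 35 astrocyte genes (orange) have a median of -0.16, pallidal neuron genes -0.98 and medium spiny neuron genes 0.34.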

How the data were processed

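The members and lists were chosen with earlier results of these data known. Total RNA (40 ng per mouse) was labelled with Cy3 and hybridised by the authors to Agilent arrays, 1 mouse per array and nothing pooled. The deposited intensity values are spot signals extracted with Agilent Feature Extraction 10.10.1.1 (processed signal, background subtracted). A deposited table of log2 values, for which no source used here gives the normalization between arrays or the probe filter, served as an alternative. Headers and methods name different array designs, and the headers gave gene names and positions (mm9). Control spots and flagged spots (122 to 189 per array) were left out, and no spot was saturated. Spots of a probe were averaged on the log2 scale and the array's 75th percentile over probes was subtracted, which sets aside any change shared by most genes. Probes were tested if they stood well above background on 4 or more of the 8 arrays (33111 probes, 46 of the 48). Groups were compared with limma 3.58.1 (lmFit, eBayes) in R 4.3.3 with Benjamini-Hochberg adjustment over all probes tested and a threshold of 0.05. A gene was represented by its tested probe with the highest mean level. The number of arrays limits the precision.

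Values per mouse are given for genes without overlap and for Gfap, Aqp4, Aldh1l1, Gja1, S100b and Aldoc, and other lists by counts, medians and their largest differences without overlap, with Slc1a2, Slc1a3, Glul, Kcnj10 and Agt added. One gene of a regional list is not reported here. Alternatives changed the background correction, scaling, filter, moderation, slide row or column as a block, probe summary and the mice included. For the other lists, leaving out control replicate 4 was chosen after seeing the data. Columns of comparisons in the study's supplement were not used other than to mark which probes its list holds.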

Additional observations from a re-analysis of the deposited data

Results flagged for a closer look

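In 70 groups of 4 mice (35 genes in 2 groups), 2 held a mouse far from the others by Dixon's criterion, where chance flags about 1 in 20. Ntsr2 was 4.22 in MS replicate 4, above the next MS mouse at 3.95, with a gap of 0.923 of the whole range. Fabp7 was 1.62 in MS replicate 3, above the next MS mouse at 1.27, with a gap of 0.921 of the range. Without MS replicate 3 the Fabp7 difference was -0.08.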

How the results depend on the processing

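The number of astrocyte genes called lower was 1 and depended on the setting, while none was called higher under any setting run (limma; 0 of the 35 were higher at an unadjusted p under 0.05). It was 7 with normexp background correction, 3 with median scaling, 0 with quantile normalization, 0 when arrays were centred on the other astrocyte genes, 0 without the filter on dim probes, 3 with probes above background on all 8 arrays, 9 with a variance trend and robust moderation, 8 in the deposited values, 0 with slide row and 0 with slide column as a block, 2 with the mean of all probes, and 0 to 3 when 1 mouse was left out (3 without control replicate 3). Of 2 alternatives chosen after seeing the data, the percentile over all spots gave 0 (Sparc adjusted p = 0.0535) and leaving out both mice numbered replicate 1 gave 0. Over all probes, 0% to 1.24% were called lower under these settings. The number of the 35 genes lower without overlap ran from 10 to 17. The 17 came without control replicate 2, and leaving out a mouse can only keep or add such genes. The median difference stayed between -0.21 and -0.12 except on the centred scale, where it was -0.0401. On that scale 23 genes were lower and 12 higher in sign, and the median of all genes shifted to 0.12. The centre was a mean level, in which the strongly lower Agt (-1.998), Slc6a11 (-1.01) and Slc25a18 (-0.98) weigh. The sign turned in 10 genes near 0. Centring gave Clu 0.10, Cst3 0.046, Id3 0.078, Mlc1 0.0499, Mt1 0.062, Mt2 0.031 and Slc4a4 0.031, median scaling Clu 0.024 and Id3 0.00197, the mean of probes Mt1 0.025, normexp Slc7a11 -0.0063, and leaving out both replicates 1 gave Mt2 0.014. Leaving out 1 mouse gave Aqp4 -0.0379 to 0.13, Clu -0.0659 to 0.0071, Fabp7 -0.0846 to 0.08, Id3 -0.13 to 0.026 and Slc7a11 -0.015 to 0.11. The cause was not tested. The labels give no replicate numbers shared between groups, so the pairing that was run is the slide column block, with 1 MS and 1 control array in each column.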
